A study of Bos taurus with 14 samples.

Results

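ULBP13, DNER, PRSS2 and HBB are 4 genes whose transcript level in cattle back muscle differed between animals far more than that of most genes. They were picked from the 18078 gene rows of the deposited table because their log2 CPM spanned more than 5 between the highest and the lowest animal. CPM is the read count scaled to a common library size, and 2 reads were added before taking the logarithm, so that a count of 0 has a value. The span is therefore a description of how the genes were chosen and not a finding. In all, 49 rows (0.271%) met it, and the 4 genes ranked 1 (ULBP13), 4 (DNER), 11 (HBB) and 17 (PRSS2) among them. Just inside the limit lay ULBP17 and VTN, with spans of 5.03 and 5.02, and just outside it MX1 and SLFN11, both with 4.98.

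The samples were longissimus dorsi muscle, the long muscle of the back, from 14 female cattle at postnatal day 485. For 7 of them, called restricted, the dam had been underfed from gestational day 158 until birth, and for the other 7, called control, the dam had received 100% of its requirement over that period. The labels give the restricted level as 70% in one place and 50% in another, so no level is used here. All offspring were raised alike, with free access to feed from day 301, and each sample was 1 animal. In the titles the animals are also marked R (3 animals) or Y (11) at the start and A (9) or B (5) at the end, and what these marks stand for is not stated. Of the R animals 1 was restricted and 2 were control, and of the B animals 3 were restricted and 2 were control.

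ULBP13 belongs to the UL16-binding proteins, relatives of MHC class I that stressed or infected cells place on their surface, where the receptor NKG2D of natural killer and some T cells reads them. DNER is a membrane protein with EGF-like repeats that can bind Notch receptors and is best known from neurons, Purkinje cells of the mouse among them. PRSS2 encodes anionic trypsinogen, a digestive protease precursor made mainly by acinar cells of the pancreas, and HBB the beta chain of adult haemoglobin, made by red cell precursors.

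Total counts ran from 13631018 to 17325779 per animal, and a count of 0 allowed a level of up to 0.166 to 0.226 CPM (3 reads, counting error only). Muscle genes were abundant in the counts. All 14 skeletal muscle markers in the table were tested, and MYH1, ACTA1 and the oxygen store MB were the most abundant of them. The summed level of the 14 markers was 230154 to 262659 CPM in restricted and 198746 to 252393 CPM in control animals. In bulk tissue, fewer cells of a type and less RNA per cell cannot be told apart, and this holds for each level below.

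ULBP13 (ENSBTAG00000048950) was either nearly absent or well expressed. Among restricted animals, restricted 1 and restricted 3 had 0 reads and restricted 6 had 4, while the other 4 had between 179 and 555 reads with a median of 403.5. Among control animals, control 4 had 0 reads and control 2 had 2, while the other 5 had between 185 and 1384 reads with a median of 798. No animal fell between 4 and 179 reads. The widest step between neighbouring animals was 4.84 log2 CPM, 51.6% of the whole span, with 5 animals below it and 9 above. Above the step the level was not uniform: it ran from 11.3 to 83.5 CPM, a 7.42-fold range, with an SD of 1.09 log2. Restricted 5, control 1 and restricted 7 formed the lower end, at 11.3, 12.97 and 14.3 CPM, and control 3 and control 6 the upper end, at 83.5 and 71.4 CPM. The table itself names the row ULBP13 and describes it as UL16-binding protein 15, so which member of the family it stands for is uncertain.

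DNER (ENSBTAG00000016063) also had a low and a high state. Restricted 5 and restricted 6 had 2 and 13 reads, and the other 5 restricted animals 339 to 500 reads with a median of 424. Control 2, control 1 and control 6 had 2, 5 and 12 reads, and the other 4 control animals 363 to 827 reads with a median of 438. The step between the states was 4.50 log2 CPM, 56.3% of the span, again with 5 animals below and 9 above. No animal had 0 reads. Restricted 5 and control 2, at 0.126 and 0.117 CPM, nevertheless lay below the level that a count of 0 allows. In contrast with ULBP13, the high state was tight. Its range was 22.8 to 62.3 CPM with an SD of 0.44 log2 over 9 animals, and without control 5, the animal at 62.3 CPM, the highest was restricted 3 with 30.1 CPM.

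PRSS2 (ENSBTAG00000021565) was expressed at a lower level with the same kind of split. Restricted 3 and restricted 4 had 0 reads and restricted 6 had 3, while the other 4 restricted animals had 70 to 95 reads with a median of 72. Control 2 had 0 reads and control 1 had 1, while the other 5 control animals had 38 to 126 reads with a median of 45. The step was 2.76 log2 CPM, 46.0% of the span, with 5 animals below it and 9 above, and the upper 9 lay between 2.10 and 7.91 CPM with an SD of 0.56 log2. Per kilobase of gene length, the median of the animals above the step was 29.0 CPM per kb for ULBP13, 7.90 for DNER and 4.90 for PRSS2.

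HBB (ENSBTAG00000037644) did not have 2 states. It had between 1 and 296 reads in restricted animals, with a median of 30, and between 4 and 74 reads in control animals, with a median of 15. Every animal had at least 1 read, and the values formed a graded series in which the widest step, 2.02 log2 CPM or 30.4% of the span, separated only restricted 3 (296 reads, 19.2 CPM) from the rest. The second highest animals, restricted 1 and control 2, had 74 reads each (4.64 and 4.31 CPM), and the lowest was restricted 6 (1 read, 0.068 CPM). Being switched on or off thus described ULBP13, DNER and PRSS2, and HBB only varied by degrees.

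**Figure D1:**
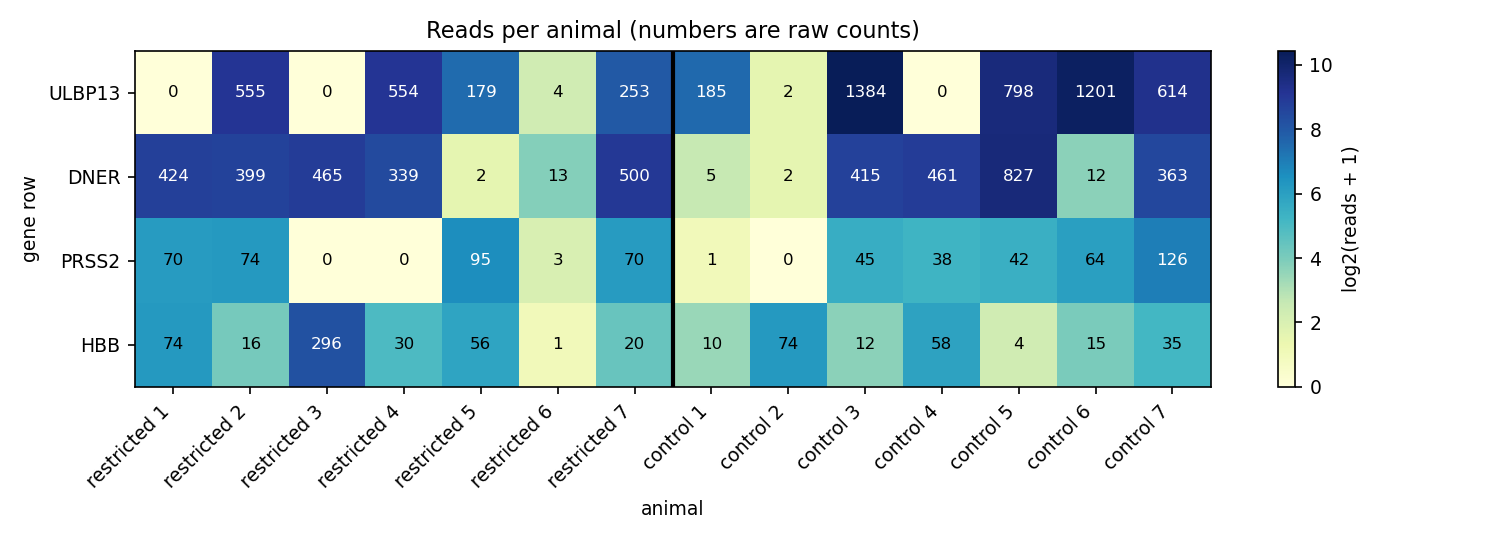
Reads of the 4 genes (rows) in each of the 14 animals (columns, restricted left of the line and control right of it); the colour is log2(reads + 1) and the printed number is the raw count. ULBP13, DNER and PRSS2 each have 5 animals with 13 reads or fewer and 9 with 38 or more, and HBB runs from 1 to 296 without such a break.

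A wide step was not the rule among genes of wide span. Of the 49 rows with a span over 5, 12 had a step wider than 50% of the span, and in 7 of these at least 3 animals lay on each side. ULBP13 and DNER were among these 7. PRSS2 and HBB, with steps of 46.0% and 30.4% of their spans, were not among the 12. In 11 of the 49 rows the widest step set a single high animal apart, as it did for HBB. By the width of the step, ULBP13 ranked 2, DNER 4, PRSS2 16 and HBB 28 among the 49.

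**Figure D2:**
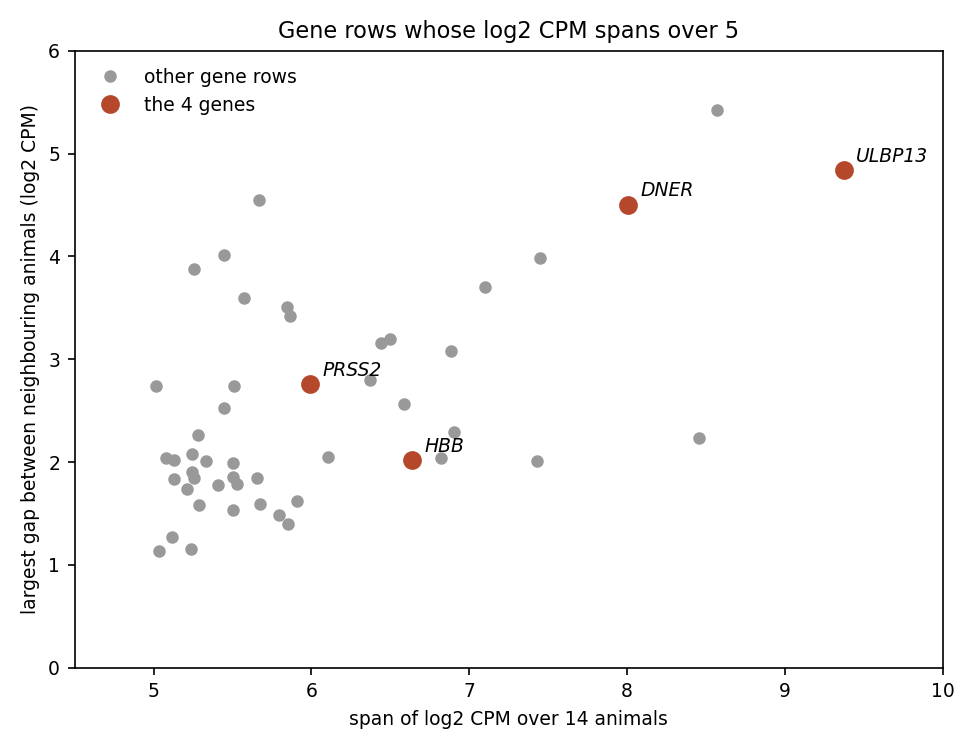
For the 49 gene rows whose log2 CPM spans over 5, the span over the 14 animals (x axis) against the widest step between neighbouring animals (y axis, both in log2 CPM), with the 4 genes in red. ULBP13 and DNER lie at the top with steps of 4.84 and 4.50, PRSS2 at 2.76 and HBB at 2.02.

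The animals in the low state were not the same for the 3 genes. For ULBP13 they were restricted 1, restricted 3, restricted 6, control 2 and control 4. For DNER they were restricted 5, restricted 6, control 1, control 2 and control 6. For PRSS2 they were restricted 3, restricted 4, restricted 6, control 1 and control 2. ULBP13 and DNER shared 2 low animals and lay on the same side of their steps in 8 of 14 animals. ULBP13 and PRSS2 shared 3 low animals, as did DNER and PRSS2, and each of these pairs lay on the same side in 10 of 14.

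Restricted 6 and control 2 were low for all 3 genes. Another 2 animals, restricted 3 and control 1, were low for 2 genes, 5 animals were low for 1 gene, and 5 (restricted 2, restricted 7, control 3, control 5 and control 7) for none. Restricted 6 and control 2 had 14753204 and 15515905 counts, against 13631018 to 17325779 over all animals. Their rows with at least 10 reads numbered 12020 and 12506, rank 11 and rank 2 from the top of the 14 (11905 to 12622). Whether depth bore on the states was not tested. In HBB restricted 6 and control 2 stood far apart as well, restricted 6 being the lowest of the 14 with 1 read and control 2 among the highest with 74. Agreement of the states between genes was counted and not tested.

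The comparison of diets asked whether these genes differed in offspring according to how the dam was fed, and no difference passed the test. The low state of ULBP13 held 3 restricted and 2 control animals, that of DNER 2 restricted and 3 control, and that of PRSS2 3 restricted and 2 control. For each gene the groups overlapped. All 4 genes passed the filter on low counts and entered the fit over 12187 genes, in which edgeR's quasi-likelihood test called 0 genes (0%) at an adjusted p of 0.05, with 518 (4.25%) at an unadjusted p under 0.05, of which 264 (2.17%) were higher and 254 (2.08%) lower in restricted animals, and 1 gene called by DESeq2, which was none of the 4. The ratios that follow are of fitted mean levels, restricted over control, with 95% intervals.

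ULBP13 averaged 14.3 ± 16.6 CPM in restricted and 38.1 ± 34.6 CPM in control animals (SD, n = 7 each), which gave a ratio of 0.374 (0.0814 to 1.72, edgeR, unadjusted p = 0.191). DNER averaged 19.3 ± 13.01 CPM in restricted and 19.5 ± 22.4 CPM in control animals, a ratio of 0.994 (0.262 to 3.77, edgeR, unadjusted p = 0.993). PRSS2 averaged 2.76 ± 2.59 CPM in restricted and 2.82 ± 2.68 CPM in control animals, a ratio of 0.984 (0.287 to 3.38, edgeR, unadjusted p = 0.978). The intervals of DNER and PRSS2 include a 2-fold difference in both directions.

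HBB averaged 4.52 ± 6.65 CPM in restricted and 1.76 ± 1.52 CPM in control animals, which gave a ratio of 2.51 (0.840 to 7.50, edgeR, unadjusted p = 0.0939). This value rested on restricted 3: without it the log2 fold change was 0.22 in place of 1.33. By edgeR with Benjamini-Hochberg adjustment the adjusted p was 0.999971 for each of the 4 genes. A two-sided exact permutation test of the mean log2 CPM over the 3432 ways to choose 7 of the 14 animals, which cannot go below p = 0.000583, gave p = 0.348 for ULBP13, 0.681 for DNER, 0.876 for PRSS2 and 0.510 for HBB. On this scale the restricted minus control difference was -1.70 for ULBP13, 0.76 for DNER, -0.36 for PRSS2 and 0.62 for HBB. For DNER the sign is opposite to that of the ratio, which compares mean levels; without control 5 the edgeR log2 fold change was 0.63 in place of -0.0087.

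**Figure D3:**
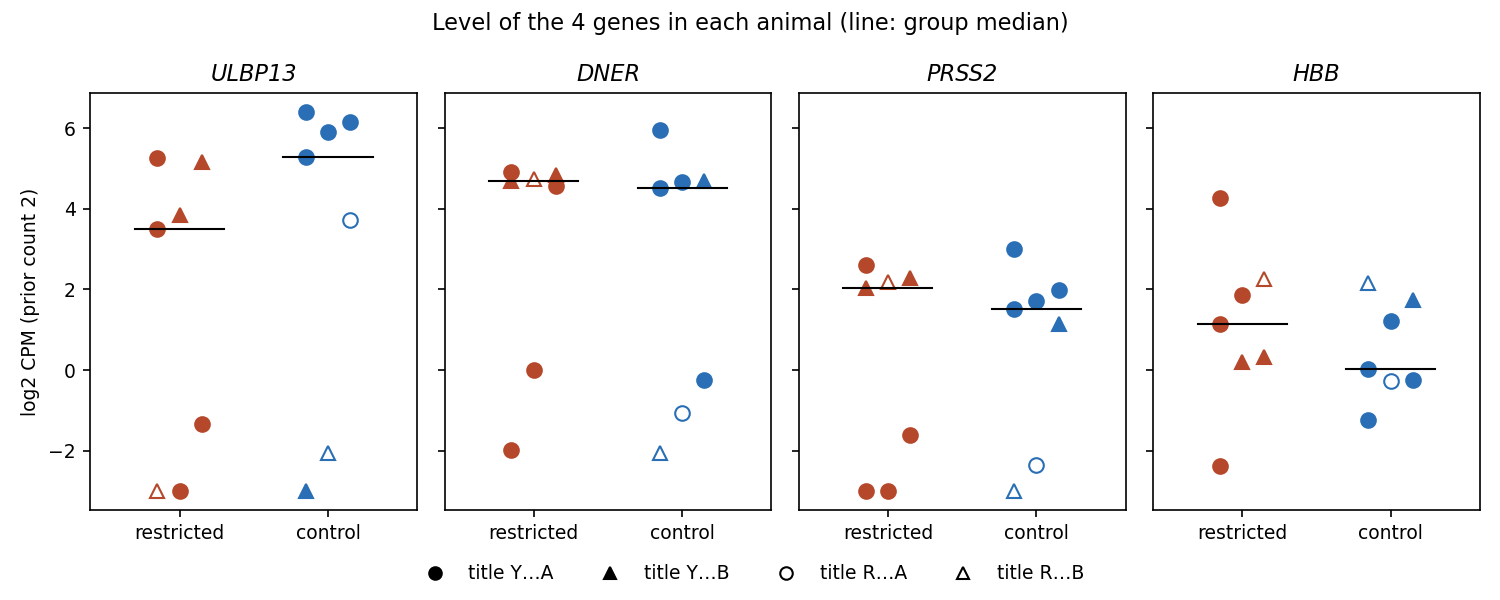
Log2 CPM (y axis, prior count 2) of the 4 genes in restricted (red, left) and control (blue, right) animals; each symbol is 1 animal, filled for title letter Y and open for R, a circle for A and a triangle for B, and the line is the group median. High and low animals occur in both diets for ULBP13, DNER and PRSS2, with 2 or 3 low animals in each group.

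Neither title letter separated the states. Low animals by last letter numbered 2 of 9 A and 3 of 5 B for ULBP13, 4 of 9 A and 1 of 5 B for DNER, and 4 of 9 A and 1 of 5 B for PRSS2. By first letter they numbered 2 of 3 R and 3 of 11 Y for each of the 3 genes, although the R animals were not the same ones: control 2 was low for all 3 genes, control 1 for DNER and PRSS2, and restricted 1 for ULBP13. With the diet as a covariate, edgeR's quasi-likelihood test called 0 of 12187 genes (0%) between A and B, with 722 (5.92%) at an unadjusted p under 0.05 (A above B in 258, 2.12%, and below it in 464, 3.81%) and 20 called by DESeq2, and 0 (0%) between R and Y, with 432 (3.54%) at an unadjusted p under 0.05 (R above Y in 248, 2.03%, and below it in 184, 1.51%) and 0 called by DESeq2. None of the 4 genes was among those called.

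ULBP13 averaged 35.2 ± 31.3 CPM in A animals (SD, n = 9) and 10.04 ± 15.7 CPM in B animals (SD, n = 5). The A over B ratio was 2.49 with an interval of 0.294 to 21.0 (edgeR, unadjusted p = 0.378), and the two-sided exact permutation p over 2002 assignments was 0.112. Without restricted 2 the permutation p was 0.0490 and without restricted 3 it was 0.0357. In R animals ULBP13 was at 0, 0.117 and 12.97 CPM and in the 11 Y animals between 0 and 83.5 CPM with a median of 35.8. The R over Y ratio was 0.0908 (0.00989 to 0.833), with an edgeR unadjusted p of 0.0357 and an adjusted p of 0.999876, and the exact permutation p over 364 assignments, whose smallest is 0.00275, was 0.154. Without control 4 or without restricted 3 that p was 0.0420.

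DNER was at 0.117, 0.350 and 26.6 CPM in R animals and between 0.126 and 62.3 CPM in Y animals with a median of 25.1 (edgeR ratio 0.374, 0.0563 to 2.49; exact permutation p = 0.154). The permutation p was 0.0256 without restricted 1 and 0.0350 without restricted 5. The fitted R over Y values rested on the 1 high R animal of each gene: without restricted 1 the edgeR log2 fold change was -6.88 for DNER in place of -1.42 and -6.63 for PRSS2 in place of -1.12, and without control 1 it was -8.98 for ULBP13 in place of -3.46. PRSS2 was at 0, 0.070 and 4.39 CPM in R animals and between 0 and 7.91 CPM in Y animals with a median of 3.16 (ratio 0.460, 0.0832 to 2.55; exact permutation p = 0.324). HBB was at 0.701, 4.31 and 4.64 CPM in R animals and between 0.068 and 19.2 CPM in Y animals with a median of 1.13 (ratio 1.40, 0.352 to 5.57; exact permutation p = 0.497). The A over B ratio was 0.839 (0.179 to 3.93) for DNER, 0.841 (0.189 to 3.74) for PRSS2 and 0.900 (0.271 to 2.99) for HBB, and the exact permutation p was 0.558, 0.548 and 0.388 in the same order. In all, 12 such permutation tests were made, for 4 genes and 3 contrasts, and with all animals none had a p under 0.05.

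RAET1G and ULBP21 had no animal near 0. Both are ligand genes of the same family. RAET1G had 11 to 155 reads and ULBP21 28 to 95 reads, with at least 11 reads in every animal, and their spans were 3.52 and 1.62 log2 CPM against 9.37 for ULBP13. ULBP17 ran from 0 to 58 reads and was at 0 in restricted 2, restricted 6, restricted 7, control 2 and control 7, of which 3 had high ULBP13. A row without a symbol described as UL16-binding protein 27-like (ENSBTAG00000023970) came closer: it had 0 or 1 read in the 5 animals low for ULBP13 and 2 to 29 reads in the other 9. A row described as UL16-binding protein 3-like (ENSBTAG00000038112) leaned the same way with overlap, at 3 to 9 reads in those 5 animals and 7 to 96 in the other 9. Reads can be shared between members of such a family, and how reads with several alignments were counted is not given in the sources used here, so single values of the family are uncertain.

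**Figure D4:**
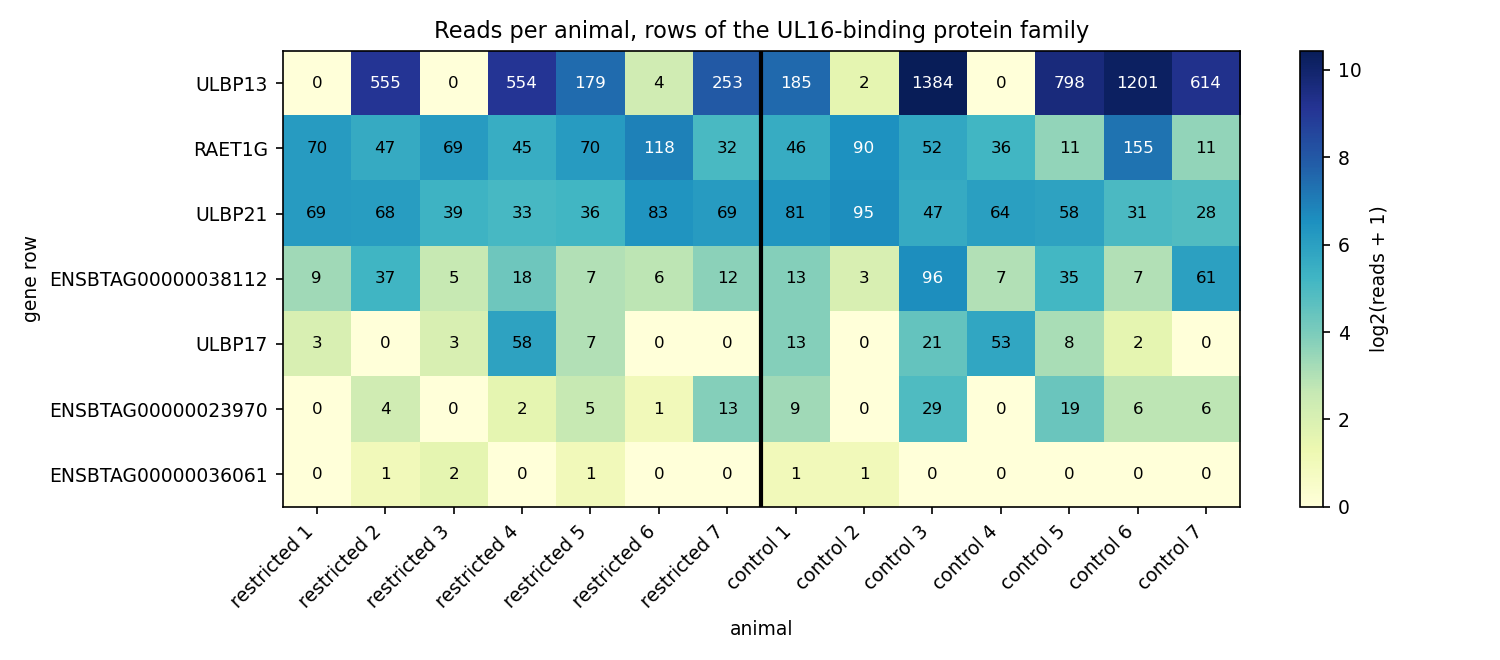
Reads of the 7 rows of the UL16-binding protein family (rows, most reads at the top) in each animal (columns, restricted left of the line and control right of it); the colour is log2(reads + 1) and the printed number is the raw count. ULBP21 and RAET1G have at least 11 reads in every animal, whereas ULBP13 runs from 0 to 1384.

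Of the 8 genes of the NKG2D list in the table, 4 were tested and 0 differed between diets, with a median log2 fold change of 0.39, against -0.00079 over all genes tested. MIC1, an MHC class I related ligand, was at 3.28 ± 1.88 CPM in restricted and 2.02 ± 0.97 CPM in control animals (SD, n = 7 each), with a ratio of 1.60 (0.918 to 2.77). A further member of that list, MIC2, is described in the table as CD99, which is no NKG2D ligand, so whether the row belongs in the list is uncertain. The row was 1 of the 4 genes tested and entered their median, with a ratio of 1.44. The other tested genes, ULBP21 and RAET1G, had ratios of 0.994 and 1.19. The receptor gene KLRK1 had 0 to 20 reads and its adaptor HCST 0 to 2, both below the filter. All 10 MHC class I genes were tested and 0 differed (median 0.02). The non-classical gene BOLA-NC1 alone had an unadjusted p under 0.05, which did not pass after adjustment. Its ratio was 0.774 (0.601 to 0.999, edgeR, unadjusted p = 0.0490). B2M, the light chain of class I, was at 156.1 ± 16.2 CPM in restricted and 152.5 ± 18.2 CPM in control animals, and the class I genes BOLA and JSP.1 had ratios of 0.926 and 1.16.

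Relatives of DNER among the Notch ligands differed in level and in spread. Of those with most reads, JAG2 had 310 to 655 reads, JAG1 180 to 434 and DLL4 126 to 274, with spans of 1.04, 1.04 and 0.69 log2 CPM against 8.01 for DNER. DLL1 had 71 to 152 reads with a span of 0.84, and DLK1 had 13 to 239 with a span of 3.81. DLK2 and DLL3 had at most 6 and 2 reads. Per kilobase, DNER in its high animals, with a median of 7.90 CPM per kb, was near JAG2, with a median of 7.11 CPM per kb over all 14 animals. Of the 36 genes of the Notch list all were in the table, 28 were tested and 0 differed between diets (median log2 fold change -0.04). Its most abundant members were RFNG, a glycosyltransferase that modifies Notch, and NCSTN and PSENEN, subunits of the protease that releases the Notch intracellular domain, with ratios of 0.971, 1.03 and 1.03. Of the 13 neuronal markers in the table, 3 were tested and 0 differed (median -0.30): PVALB, which fast muscle fibres also express, MAP2 and STMN2, with ratios of 1.49, 0.812 and 0.765. The synaptic gene SNAP25, the interneuron gene GAD1 and the Purkinje cell genes CALB1 and PCP2 had at most 2 reads in any animal. Other neuronal markers below the filter had more: RBFOX3 had 2 to 22 reads, SYT1 2 to 12, NEFH 2 to 10, TUBB3 0 to 60 and NEFM 0 to 14.

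Most pancreatic genes were at or near 0 in every animal, whether PRSS2 was high or low. Of the 9 acinar markers in the table only AMY2B, an amylase, passed the filter, with 1876 to 3584 reads in every animal and a ratio of 0.873 (0.728 to 1.05), and the other 8, CPB1 and CELA1 among them, had at most 5 reads in any animal. The row described as trypsin 1 (ENSBTAG00000050323) had 1 read in all. Of the 16 genes in the table from the list of trypsin activators, receptors and inhibitors, 5 were tested and 0 differed (median log2 fold change 0.05). CTSB, a lysosomal protease that can activate trypsinogen, had a ratio of 0.994 and KLK1, a kallikrein, 1.03. PRSS23, a secreted serine protease, was at 108.7 ± 34.5 CPM in restricted and 77.9 ± 17.8 CPM in control animals (SD, n = 7 each), with a ratio of 1.40 (1.06 to 1.84, edgeR, unadjusted p = 0.0219) that did not pass after adjustment. TMPRSS15, the intestinal activator of trypsinogen, had 0 to 5 reads.

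In humans and mice the trypsinogen genes lie within the T cell receptor beta locus. The summed level of the 18 T and NK cell markers ran from 5.11 to 19.6 CPM in restricted and from 5.54 to 15.3 CPM in control animals, and 7 of them were tested, of which 0 differed between diets (median -0.04). CD247, CD3E and ZAP70, parts of T cell receptor signalling, had ratios of 0.975, 1.35 and 0.884.

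Other red cell genes were at low levels. The 14 other erythroid genes in the table summed to 0.966 to 1.81 CPM in restricted and 0.905 to 2.20 CPM in control animals, and the most abundant was AHSP, the chaperone of alpha globin, with 9 to 31 reads. HBB had more reads than AHSP in 9 animals. AHSP alone was tested, with a ratio of 0.880 (0.625 to 1.24). ALAS2, the first enzyme of haem synthesis in red cells, had 0 to 9 reads and HBQ1 0 to 6. The membrane genes SLC4A1, GYPB and EPB42 and the transcription factor GATA1 had at most 1 read in any animal. Restricted 3, with 296 reads of HBB, had 13 of AHSP, and restricted 6, with 1 read of HBB, had 15.

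The sum of these genes held only 14 to 37 reads per animal, with 9 to 31 of AHSP, so counting error limits its use. Across the 14 animals, HBB against the summed level of these genes gave Pearson r = 0.11 (permutation p = 0.710) and Spearman rho = -0.046 (permutation p = 0.881). Without restricted 3 and restricted 6, the animals farthest from the HBB median, r was -0.20 (permutation p = 0.531). Within the restricted animals r was 0.50 (exact permutation p = 0.244, n = 7) and within the control animals -0.13 (exact permutation p = 0.779, n = 7). The rows of alpha globin cannot serve as a check: HBA and the row described as alpha 1 had 2 reads each over all animals, the RefSeq table lists HBA and HBA1 beside each other, and how reads that match both were counted is not stated. Of the 9 neutrophil and platelet markers in the table only ITGA2B was tested, with a ratio of 0.822 (0.616 to 1.10), and LTF and S100A12 had at most 17 and 9 reads.

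**Figure D5:**
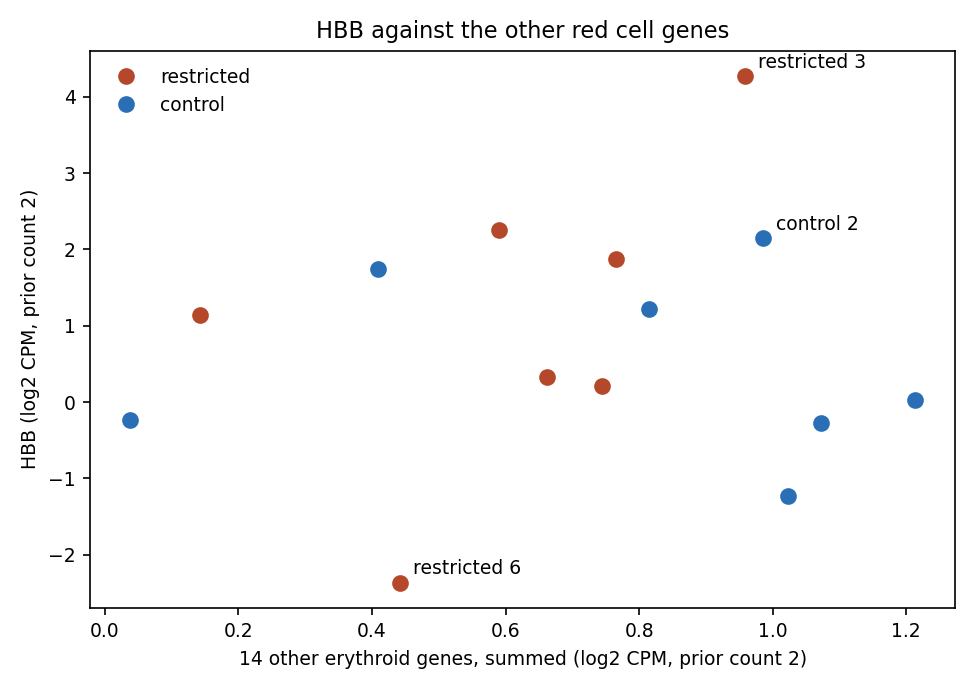
Level of HBB (y axis) against the summed level of the 14 other erythroid genes (x axis), both in log2 CPM with a prior count of 2, for restricted (red) and control (blue) animals. Restricted 3 and restricted 6 are the highest and lowest in HBB and lie at 0.96 and 0.44 on the x axis.

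Genes near these on the chromosome were taken from the order of the RefSeq annotation of ARS-UCD2.0, among those whose symbol has a row in the counts. Genes in between without such a row may have been passed over, so those named need not be directly adjacent. Most had too few reads to show a low and a high state. On either side of DNER, PID1 had 58 to 121 reads and TRIP12 3995 to 5201 reads, with spans of 0.88 and 0.32 log2 CPM, and DAW1 and FBXO36 had at most 1 and 8 reads. MGAM, TAS2R38, EPHB6 and TRPV6, around PRSS2, had at most 4 reads. Around HBB, the embryonic globin genes HBE4 and HBE2 had at most 2 reads and TRIM6 at most 1, and the olfactory receptor gene OR51E2 had 17 to 35 reads with a span of 0.94. ULBP13 is not placed on a chromosome in that annotation, so its neighbours were not examined.

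Rows with a similar pattern were ranked by Pearson r of log2 CPM over the 14 animals, among the 13037 rows with at least 10 reads in at least 2 animals, and the 5 highest that carry a gene symbol are named for each of the 4 genes. These values are descriptions, since the largest of so many correlations is high whatever the genes. For ULBP13 the rows with a symbol were ALK, a receptor tyrosine kinase (r = 0.85), SDHAF4 (0.84), SMIM11A (0.81), EPC1 (0.78) and SERINC2 (0.77). Rows without a symbol ranked among them: ENSBTAG00000001836 (r = 0.97) above all 5, and ENSBTAG00000023970 (0.85) and ENSBTAG00000026437 (0.83) above SMIM11A. ALK had 8 to 64 reads and a span of 2.65 log2 CPM, and without restricted 1 and restricted 3 its r was 0.79. For DNER they were VPS33A (0.84), TIMM8B (0.84), CERS2 (0.83), ANAPC15 (0.80) and the adhesion molecule VCAM1 (0.79), with spans of 0.42 to 1.04.

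For PRSS2 they were ERLEC1 (0.82), IFT122 (0.81), CYBA (0.80), TRNAU1AP (0.80) and RARRES2 (0.79), with spans of 0.37 to 1.77. For HBB they were KLK7 (0.85), TRIM59 (0.80), MAPK8IP1 (0.79), MFAP2 (0.76) and FLT3LG (0.76), with spans of 1.61 to 3.23. The row ENSBTAG00000048049, without a symbol (0.77), ranked above MFAP2. None of these 20 genes split the animals at its widest step as the gene it resembled did. Ranked by Spearman rho in place of Pearson r, 2 of the 5 genes stayed for ULBP13, 0 for DNER, 1 for PRSS2 and 2 for HBB.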

How the data were processed

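RNA was sequenced from longissimus dorsi of 14 animals, 7 per diet, grouped by the treatment label; replicate numbers follow sample order. The authors deposited raw counts of reads per gene. Per the submitters' processing notes, FastQC, HISAT2, featureCounts and edgeR were used with the build ARS-UCD1.2; no source used here states versions, annotation, strand setting or how multiple alignments were treated, so reads of a gene and of its antisense or overlapping partner may be mixed. Gene length is as deposited.

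The deposited counts entered edgeR 4.0.16 under R 4.3.3: filterByExpr by diet (minimum count 10, minimum total 15) left 12187 genes, and TMM set the scaling. The quasi-likelihood F test gave differences, adjusted by Benjamini-Hochberg (threshold 0.05), for diet without covariates and for each title letter with diet as a covariate. DESeq2 1.42.0 was an alternative. Single genes were compared by exact permutation of mean log2 CPM (prior count 2). The fits were tested on simulated data. P-values measure the spread between these animals; whether any shared a parent is not given. The RefSeq table of ARS-UCD2.0 matched 0 identifiers; the 4 symbols matched, and no coordinates are given. Depth was 13631018 to 17325779 counts per animal.

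The genes and lists were chosen with earlier results of these data known. Genes named are the 4, the 5 with a symbol most similar to each, and the 3 most abundant of each of 10 lists; other genes were chosen after their values were seen.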

Additional observations from a re-analysis of the deposited data

Results flagged for a closer look

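DNER in animals with last title letter B was flagged because 1 of the 5 lay far from the rest. Control 2 had 2 reads, against 399 to 500 in the other 4, and its gap to the nearest of them was 0.979 of the range of log2 CPM. PRSS2 in the same 5 animals was flagged for the same animal, which had 0 reads against 38 to 74 in the others, with a gap of 0.785 of the range. Of the 16 groups of animals examined in this way, by gene and by diet or last letter, these were the 2 flagged. Chance flags about 1 in 20 groups of unselected values, a rate that does not apply here, because the genes were picked for their wide range. Both gaps restate the low state of control 2 described above, and ULBP13, with 3 of the 5 B animals low, gave no such flag.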

How the results depend on the processing

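No paired analysis was possible because the replicate numbers only follow sample order and pair no animals. The number of genes called moved to 1 for diet with DESeq2, and for A over B to 1 without the filter and 20 with DESeq2. Leaving out 1 animal gave 0 for diet, 0 to 2 for A over B (above 0 without control 3, 4 or 7 or restricted 7) and 0 to 2 for R over Y (above 0 without control 1). None of the 4 genes was called under any of these settings. With a prior count of 0.5, 208 rows spanned over 5 log2 CPM in place of 49, but each gene kept its number of animals below the step.

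Over the fits without 1 animal, the difference in mean log2 CPM ran from 2.55 to 4.59 for ULBP13 (A minus B), -5.62 to -2.28 for ULBP13 (R minus Y), -4.88 to -1.49 for DNER (R minus Y) and -0.95 to 0.18 for PRSS2 (restricted minus control). In each of the first 3 of these, 2 animals left out gave p under 0.05, and they are named above. The log2 fold change of edgeR changed sign in some of them: -0.23 to 0.63 for DNER and -0.33 to 0.49 for PRSS2 (diet), -0.74 to 0.048 for DNER, -1.34 to 0.12 for PRSS2 and -1.11 to 0.30 for HBB (A over B), and -0.33 to 1.10 for HBB (R over Y). Without changing sign, the R over Y values ran from -8.98 to -2.83 for ULBP13, -6.88 to -0.66 for DNER and -6.63 to -0.41 for PRSS2. That of DNER by diet was 0.040 with both title letters as covariates. The correlation of HBB with erythroid genes turned to -0.20 without the 2 farthest animals and -0.13 within control animals, with no value past the threshold. The cause was not tested. Depth limits the genes with few reads: PRSS2 had 38 to 126 in its high animals and HBB 1 to 74 in all but restricted 3.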

Other observations

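The rows below were chosen after their values were seen and are given as values only. One row with neither symbol nor description, ENSBTAG00000001836, had 0 reads in exactly the 5 animals that were low for ULBP13 and 84 to 794 reads in the other 9, with Pearson r = 0.97 to ULBP13 over 14 animals. It was the only one of the 13037 rows compared, HBB set aside, whose widest step (of at least 1 log2 CPM) divided the animals as 1 of the 3 genes did. Another unnamed row, ENSBTAG00000026437, had at most 6 reads in 7 animals, which included these 5, and 25 to 89 in the rest.

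The MHC class II gene BOLA-DQA5, which encodes an antigen-presenting alpha chain, also had a low and a high state. It had at most 2 reads in restricted 3, restricted 4, restricted 6, control 2 and control 4 and 30 to 235 reads in the other 9. A row described as DQ alpha 2 (ENSBTAG00000009656) divided the animals in the same way, with at most 3 against 66 to 304 reads. Of these 5 low animals, 4 were also low for PRSS2, 4 for ULBP13 and 2 for DNER.

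Restricted 7, high for ULBP13, DNER and PRSS2, was the highest animal in 22 of the 49 rows with a span over 5. These rows were of several kinds. ALB, albumin, had 781 reads there and at most 134 in any other animal, TF, transferrin, 345 and at most 39, and the fibrinogen chain FGG 95 and at most 12. TTR had 76 reads and at most 14 elsewhere, and VTN 70 and at most 7. Genes known to be induced by interferon were also highest there, among them ISG15, MX2 (975 reads), RSAD2 (1476), OAS1X (1090), IFIT1 (456), ZBP1 (226) and IFI44 (234). So were THRSP (2387 reads) and the fatty acid elongase ELOVL6 (926 reads). For ISG15, MX2, OAS1X, IFIT1 and ZBP1 the widest step lay above 11 animals, so restricted 7 was not alone on its high side. For RSAD2 and IFI44 that step lay above 13 animals. For THRSP and ELOVL6 it set apart 1 low animal, control 6.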
